A study of Mus musculus with 12 samples.

Results

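This account follows 10 genes whose products are transcription factors or transcriptional co-regulators of mesenchymal lineages: Sox9, Nkx3-2, Runx2, Cebpa, Cebpb, Cebpd, Pparg, Twist1, Prrx1 and Lbh. They were taken by name from a table of 32721 genes, and all 10 were in it and passed the filter on low values. The names were chosen by the levels and changes these genes show in the same libraries, with no cutoff on a value, so the levels and changes below are descriptions and their calls are not independent evidence. Gene-wide calls are given beside them for scale.

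Poly-A RNA came from mouse embryonic fibroblasts (MEF) of a Vps15f/f line, in which both alleles of Pik3r4, the gene of the class 3 PI3K subunit Vps15, carry loxP sites. Every group shared these alleles and an adenoviral transduction: adeno-GFP, labelled WT, or adeno-CRE, which brings the recombinase, labelled Vps15KO. Each comparison of Vps15KO with WT is thus adeno-CRE against adeno-GFP. Loss of Vps15, the recombinase and GFP cannot be told apart in it. Library names add pLEX, which the labels leave unexplained. After 5 days the cells, grown to 90% confluence in DMEM with 4.5 g/L glucose and 10% FBS, stayed in that basal medium or spent 2 h in EBSS, a salt solution without amino acids. The media differ in more than amino acids, and the parts of this change were not tested separately. The 4 groups (WT basal, WT EBSS, Vps15KO basal, Vps15KO EBSS) have 3 libraries each, and no label says whether these came from separate cultures, so the spread may be technical.

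Mesenchymal progenitors give rise to cartilage, bone, fat and connective tissue, and a small set of factors steers the choice. SOX9 is the master factor of cartilage and acts upstream of NKX3-2, RUNX2 is required for bone, and C/EBPβ and C/EBPδ act early in fat formation, ahead of C/EBPα and PPARγ, which then sustain each other. TWIST1 and PRRX1 mark undifferentiated limb and craniofacial mesenchyme, and LBH is a small co-regulator of limb bud and heart. Embryonic fibroblasts carry many of these messages without having entered the corresponding lineage.

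Libraries held 21278921 to 21698584 reads in genes. Pik3r4 lay at normalized counts of 864 to 884 in WT basal, 834 to 959 in WT EBSS, 633 to 699.8 in Vps15KO basal and 602 to 672 in Vps15KO EBSS. The groups did not overlap between genotypes, but most of the message remained, and counts over the whole gene do not show whether the floxed part was missing. In read counts WT basal replicate 2 stood apart from its group, with a chi-square per gene of 22.1 and 21.0 to replicates 1 and 3 where those gave 3.24 between them. WT EBSS replicate 1 did so less, with 8.45 and 12.2 where the remaining pair gave 3.92. Without both libraries the members' log2 differences moved by at most 0.22, that of Nkx3-2, and calls changed only for Pparg with EBSS in WT and for Nkx3-2 with Vps15KO in basal medium, as given below. Fibroblast markers were abundant, 10 of 11 with a mean of at least 10 normalized counts in each group. Their summed level ran from 571946 to 599347 in WT basal, from 509558 to 544974 in WT EBSS, from 284859 to 288052 in Vps15KO basal and from 283175 to 296670 in Vps15KO EBSS. Of 10 fibroblast markers tested, 8 fell with Vps15KO in basal medium and 7 in EBSS, where 29.2% and 27.8% of all genes tested were called lower. The 7 macrophage markers summed to 869 to 901 in WT basal and to 2920 to 3803 in Vps15KO basal, nearly all of it Cd68, a lysosomal protein. Ptprc and Adgre1 were at 0 in all WT basal libraries and had at most 0.98 normalized counts in Vps15KO basal. Of the 7, 2 passed the filter on low values, and both were called higher with Vps15KO in basal medium. Epithelial, endothelial, muscle and neural markers summed to at most 122 in any library. The part of these shifts in the members' values was not tested, and in bulk RNA fewer cells of a type cannot be told apart from less RNA per cell.

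The promoter letters of 5 members, chosen for how their messages moved or for the sites they hold, come ahead of the values. The RefSeq promoter table for GRCm38.p6 (mm10) held 10 start windows for 8 of the 10 members, and had no entry for Sox9 or Cebpd. Windows are the 250 bases before the start, read 5′ to 3′ on the gene's strand. Letters were searched on both strands. Capitals mark the TATA box TATAAA, the core of ATF and CREB sites TGACG, the C/EBP site TTNNGNAA, the joint C/EBP-ATF site TGATGNAA and the FOXO site GTAAACA, while GC boxes (GGGCGG) and E-boxes (CANNTG) stay in lower case. Cebpa lies on the plus strand (chr7:35119043-35119292), as do Cebpb (chr2:167688665-167688914), Lbh (chr17:72918055-72918304), Twist1 (chr12:33957421-33957670) and the most downstream of 3 Pparg windows (chr6:115421816-115422065). Cebpa and Lbh had the largest rise and fall among the 5. Per kb of exon Cebpb led in every group but WT basal. Twist1 fell in both genotypes, and Pparg is the textbook target of C/EBP factors.
Cebpa: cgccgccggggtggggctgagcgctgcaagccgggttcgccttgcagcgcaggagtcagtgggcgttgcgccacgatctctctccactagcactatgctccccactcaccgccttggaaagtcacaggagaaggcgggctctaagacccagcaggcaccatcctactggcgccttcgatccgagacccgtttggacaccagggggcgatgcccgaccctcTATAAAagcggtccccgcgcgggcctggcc
Cebpb: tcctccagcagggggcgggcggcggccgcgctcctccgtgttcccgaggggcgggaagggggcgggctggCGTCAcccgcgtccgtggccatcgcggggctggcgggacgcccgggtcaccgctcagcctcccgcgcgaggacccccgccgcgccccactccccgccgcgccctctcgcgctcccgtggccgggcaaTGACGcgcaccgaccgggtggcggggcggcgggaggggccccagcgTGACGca
Lbh: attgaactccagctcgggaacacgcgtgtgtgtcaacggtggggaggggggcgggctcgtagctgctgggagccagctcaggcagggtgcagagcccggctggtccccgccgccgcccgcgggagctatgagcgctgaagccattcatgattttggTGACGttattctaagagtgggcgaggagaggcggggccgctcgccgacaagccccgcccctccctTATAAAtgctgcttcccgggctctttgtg
Twist1: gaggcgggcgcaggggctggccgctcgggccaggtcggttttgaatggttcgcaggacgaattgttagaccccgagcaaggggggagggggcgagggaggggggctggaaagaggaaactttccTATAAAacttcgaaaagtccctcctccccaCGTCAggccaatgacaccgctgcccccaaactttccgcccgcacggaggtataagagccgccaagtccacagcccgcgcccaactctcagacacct
Pparg: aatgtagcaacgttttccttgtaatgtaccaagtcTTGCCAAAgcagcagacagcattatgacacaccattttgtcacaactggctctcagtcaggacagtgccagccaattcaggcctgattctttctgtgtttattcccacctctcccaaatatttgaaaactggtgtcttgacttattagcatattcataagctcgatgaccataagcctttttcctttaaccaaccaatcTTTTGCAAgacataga

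The Cebpa and Lbh windows each hold a TATA box, starting 30 and 29 bases before the start, and the Twist1 window holds one 126 bases before it. TATAAA is in 12.4% of all 32851 windows of this length. The core TGACG appears 3 times in the Cebpb window (180, 53 and 7 bases before the start) and once each in Lbh (94) and Twist1 (96), against 17.8% of all windows with at least 1. C/EBP letters occur at 215 and 16 bases before the Pparg start, and in the Runx2 and Prrx1 windows, against 36.9% of all windows. GC boxes, in 32.7% of all windows, occur 5 times in the Cebpb window, where 2 of them overlap, and 3 times in that of Lbh. No printed window has the joint C/EBP-ATF letters (3.45% of all windows) or the FOXO letters (3.17%), and E-box letters, in 66.2% of all windows, are in that of Pparg alone. These are letter matches in short windows and say nothing of binding.

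Across the 10 genes, 2 h in EBSS changed the order of the factors in both genotypes. Per kb of exon Lbh led in WT basal at 2237 ± 170 (SD, n = 3), followed by Cebpb at 1906 ± 64.5 and Twist1 at 1199 ± 55.6. In WT EBSS Cebpb led at 2710 ± 109, Prrx1 was the next at 949 ± 23.1 and Sox9 had moved from the seventh place to the third, at 711 ± 24.6, while Lbh had dropped to the sixth at 340 ± 29.3. Cebpb also led in Vps15KO basal (3101 ± 142) and Vps15KO EBSS (4287 ± 471), and Pparg was lowest in all 4 groups, at 8.84 ± 1.53 to 22.3 ± 2.08. Neighbours in these orders whose ranges overlapped were Prrx1 and Cebpd in WT basal, Cebpa and Cebpd in WT EBSS, and in Vps15KO EBSS Prrx1 and Lbh, Lbh and Cebpd, and Nkx3-2 and Runx2. Exon lengths are those of the GENCODE M21 models, kept within the RefSeq gene, and the models the authors counted on are not given in the sources used here. These lengths pool the exons of all annotated transcripts of a gene. For Prrx1 that gives 11066 bases where its longest transcript has 6527, and for Runx2 8837 against 6463. Such genes are placed lower than by their longest transcript, so the orders between genes depend on this choice.

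**Figure D1:**
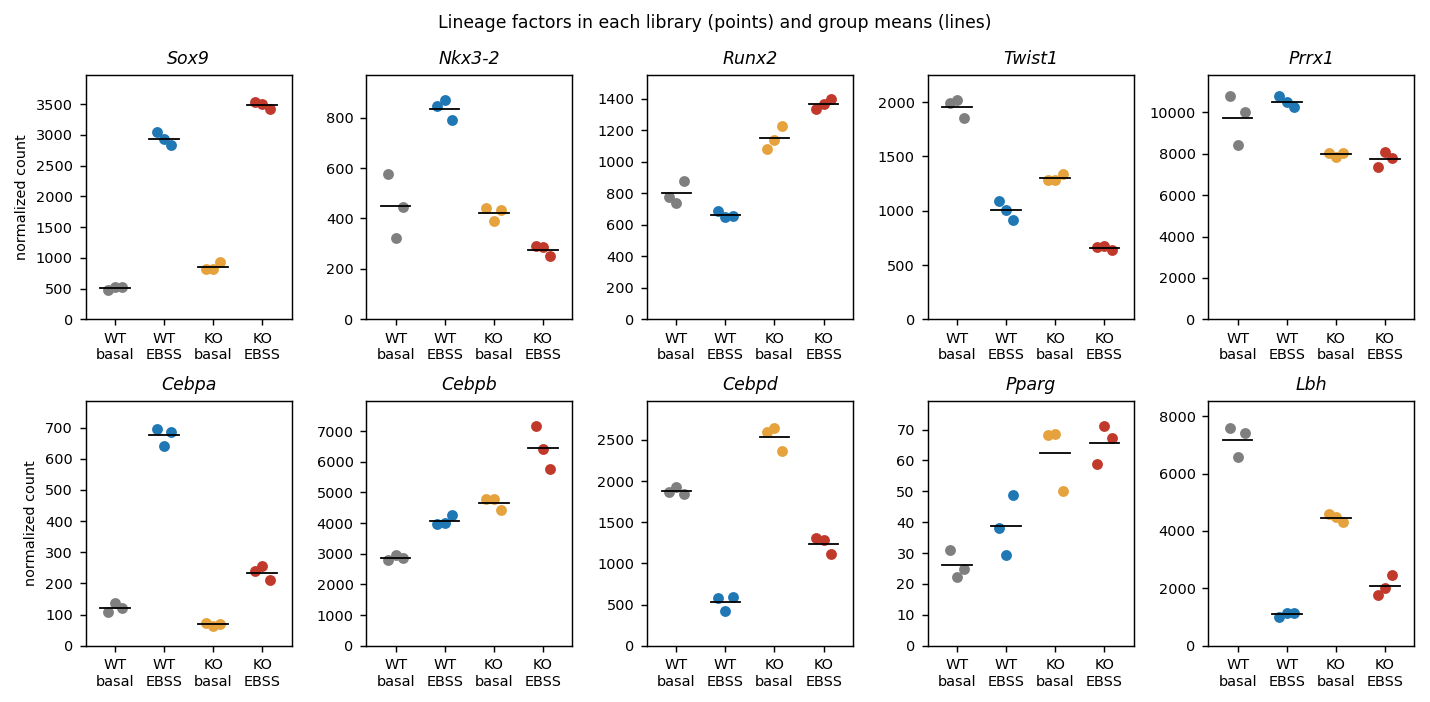
Normalized counts (y axes, linear from 0, a scale per gene) of the 10 genes in each of 12 libraries, with points for libraries and lines for group means. Sox9 and Cebpa are high in both EBSS groups, Lbh, Cebpd and Twist1 are low there, and Nkx3-2 is high in WT EBSS and low in Vps15KO EBSS.

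A gene was called at an adjusted p under 0.05 in a limma fit over all 14279 genes tested, and log2 differences are given with their standard error (SE). With EBSS in WT, 5 members were called higher and 4 lower, where 31.4% of all genes tested were called higher and 31.3% lower. With EBSS in Vps15KO, 4 were called higher and 4 lower, beside 25.9% and 26.1% of all genes. With Vps15KO in basal medium, 5 were called higher and 4 lower (29.3% and 29.2%), and with Vps15KO in EBSS, 6 and 4 (29.4% and 27.8%). The EBSS effect differed between genotypes, Vps15KO minus WT, for 3 members upward and 3 downward, beside 9.55% and 8.24% of all genes. Groups did not overlap for 8 members with EBSS in WT (65.2% of all genes), 8 with EBSS in Vps15KO (63% of all genes), 9 with Vps15KO in basal medium (61.7%) and 10 with Vps15KO in EBSS (66.3%). The median log2 differences of the members were 0.23, 0.01, 0.19 and 0.39 in these comparisons and -0.10 for the difference, while those of all genes tested lay between -0.02 and 0. Each WT or Vps15KO group serves in more than 1 comparison, so these values are set side by side and not taken as separate support. The shares of all genes given here are also the scale for the counts of listed genes below. The lists were chosen with earlier results of these data known, and genes given from them with p-values are among those of smallest p. Their calls and p-values are therefore descriptions too and not independent evidence.

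**Figure D2:**
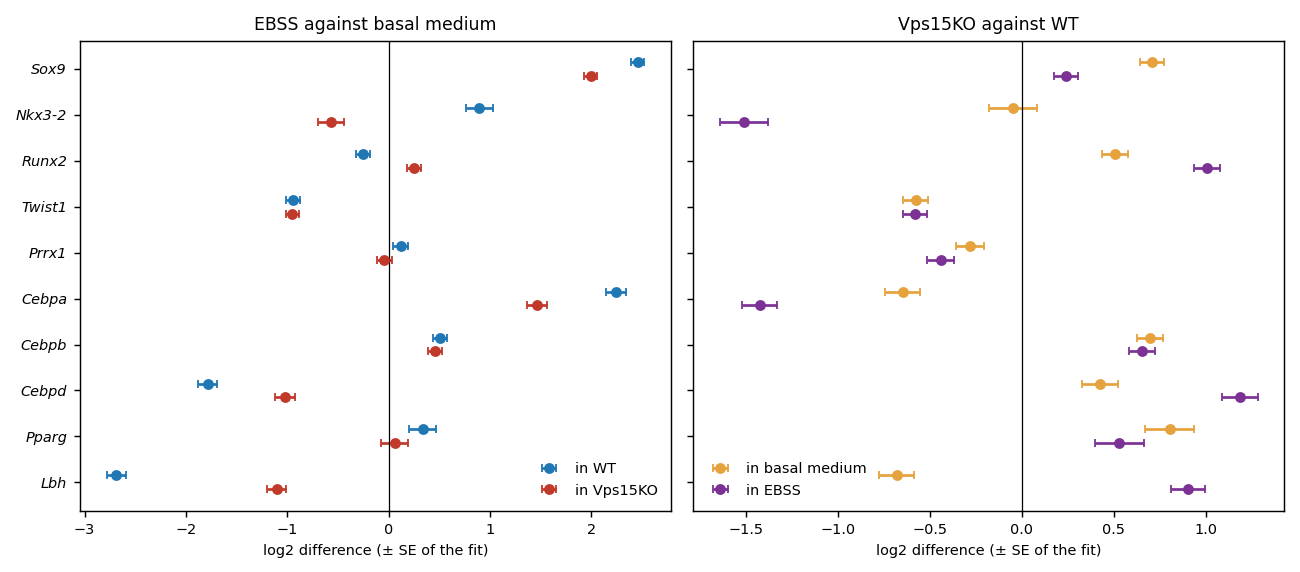
Log2 differences (x axes, points) of each gene with EBSS against basal medium, left, and with Vps15KO against WT, right, with bars for the SE of the fit. Sox9 and Cebpa lie far to the right for EBSS in both genotypes and Lbh and Cebpd far to the left, while Nkx3-2 and Runx2 lie on opposite sides in the 2 genotypes and Lbh does so for Vps15KO in the 2 media.

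Sox9, the cartilage master factor, rose with EBSS in both genotypes and was higher in Vps15KO in both media. Its normalized counts were 480, 526 and 532 in WT basal and 3045, 2934 and 2842 in WT EBSS. In Vps15KO they were 825, 815 and 927 in basal medium and 3533, 3499 and 3413 in EBSS. All 6 EBSS libraries lay above all 6 basal ones, and in each medium the Vps15KO libraries lay above those of WT. The means stood in a ratio of 5.74 in WT and 4.07 in Vps15KO, log2 differences of 2.46 ± 0.06 and 1.99 ± 0.06 (SE). The rise in WT was the 17th largest of all genes tested. Sox9 was higher in Vps15KO by 0.71 in basal medium and 0.24 in EBSS, so that the EBSS effect in Vps15KO was smaller by 0.47 ± 0.09 on the log2 scale. Sox9 lies at chr11:112782210-112787757 on the plus strand, in 3 exons, with no overlapping annotated gene.

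Nkx3-2 (also Bapx1), a homeobox repressor downstream of SOX9 in early cartilage, moved in opposite directions with EBSS in the 2 genotypes. Counts in WT basal were 576, 321 and 446, the lowest of them in the library that stood apart, and those in WT EBSS were 845, 868 and 791. In Vps15KO the basal counts were 442, 390 and 433 and the EBSS counts 289, 287 and 251. The 3 WT EBSS libraries were the highest of the 12 and the 3 Vps15KO EBSS libraries the lowest. The log2 difference with EBSS was 0.89 ± 0.13 in WT and -0.57 ± 0.13 in Vps15KO, and the gap between these, -1.46 ± 0.19, was the 6th largest in its direction among all genes. In EBSS Vps15KO stood at 33.0% of WT (log2 -1.51 ± 0.13). In basal medium the genotypes overlapped (-0.05 ± 0.13, not called), and without WT basal replicate 2 that value was -0.25 and called, while EBSS in WT gave 0.69 and the gap -1.26, both still called. The gene (chr5:41761483-41764220, minus strand, 2 exons) has a GC content of 67.7%, above 99.8% of genes.

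Sox9 and Nkx3-2 thus went together in WT and apart in Vps15KO, where Sox9 stood at 4.07 times and Nkx3-2 at 0.65 times its basal level after EBSS. Of 8 tested cartilage factors and partners from a list chosen beside the members, 2 rose and 4 fell with EBSS in WT and 3 rose and 1 fell in Vps15KO. The median log2 difference was -0.17 in WT and 0.17 in Vps15KO, against -0.02 for all genes in both. Arid5b, a partner of SOX9 in cartilage, fell in WT (-0.93 ± 0.07, limma adjusted p = 2.6e-09) and rose in Vps15KO (0.44 ± 0.07, adjusted p = 4.5e-05), where the value was 0.22 with length and GC trends removed. Its relative Arid5a rose in both, by 0.70 ± 0.09 and 1.52 ± 0.09 (limma adjusted p = 1.8e-06 and 1.2e-10). With Vps15KO in basal medium 2 of the 8 rose and 5 fell, among them Trps1, a GATA-type repressor of cartilage growth plates (-1.03 ± 0.08), and Mef2c, a factor of cartilage hypertrophy (-1.09 ± 0.08). With Vps15KO in EBSS 2 rose and 2 fell, and the difference of the EBSS effects, Vps15KO minus WT with its sign, was called upward for 4 of the 8 and downward for none (none at an unadjusted limma p under 0.05 either). The other SOX trio gene tested, Sox5, had 123 to 151 normalized counts in WT basal and 174 to 207 in WT EBSS. In Vps15KO it had 107 to 127 in basal medium and 162 to 186 in EBSS, so the media did not overlap in either genotype. Sox6 had at most 3.05. Cartilage matrix messages were scarce: Acan, which codes for aggrecan, had at most 1.95 normalized counts in any library and Col2a1, the main cartilage collagen gene, 10.6 to 24.7. Of 6 products tested, 3 rose and none fell with EBSS in each genotype (none at an unadjusted limma p under 0.05 either), led by Col11a2 (1.39 ± 0.12 in WT and 1.34 ± 0.12 in Vps15KO), and 2 rose and 3 fell with Vps15KO in each medium, with Comp, a matrix protein, at -1.73 ± 0.13 in basal medium.

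Runx2, the bone master factor, was higher in Vps15KO than in WT, and more so in EBSS. WT counts were 777, 742 and 882 in basal medium and 686, 652 and 658 in EBSS. Vps15KO counts were 1081, 1137 and 1230 in basal medium and 1335, 1366 and 1403 in EBSS. All 6 Vps15KO libraries lay above all 6 WT ones, and EBSS moved the genotypes further apart. The log2 difference of Vps15KO from WT was 0.51 ± 0.07 in basal medium and 1.01 ± 0.07 in EBSS, where the ratio of means was 2.06. EBSS lowered Runx2 by 0.25 ± 0.07 in WT and raised it by 0.25 ± 0.07 in Vps15KO, a gap of 0.50 ± 0.10. The rise in Vps15KO was not called after quantile normalization (0.16) or with trends in length and GC content taken out (0.07), and the fall in WT was then -0.44 with those trends out, while the gap stayed at 0.51. The gene (chr17:44495987-44814797, minus strand) overlaps Supt3 and 3 antisense transcripts on the other strand. The use of strand in counting is not stated, so their reads could have been counted with it. Runx2 also overlaps n-R5s27, annotated as rRNA, on the same strand.

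Among 13 tested bone factors and partners, 8 rose and 2 fell with EBSS in WT and 6 rose and 1 fell in Vps15KO, with medians of 0.26 and 0.28. Tle3, a Groucho-type corepressor that binds RUNX factors, rose by 1.09 ± 0.07 and 0.69 ± 0.07 (limma adjusted p = 3.5e-10 and 2.4e-07). Hdac4, a deacetylase that restrains RUNX2, rose by 1.01 ± 0.08 in WT and 0.50 ± 0.08 in Vps15KO, and Runx1, a close relative, by 0.92 ± 0.08 and 0.52 ± 0.08. In Vps15KO these 2 rises were 0.31 and 0.34 with length and GC trends removed. With Vps15KO 6 of the 13 rose and 3 fell in basal medium and 4 rose and 6 fell in EBSS. Atf4, a stress factor that partners RUNX2 in bone, was higher in Vps15KO by 0.76 ± 0.09 in basal medium and 1.40 ± 0.09 in EBSS (limma adjusted p = 1.7e-06 and 5.3e-10). The signed difference of the EBSS effects was called upward for 2 of the 13 and downward for 4. Sp7, the factor after RUNX2, had 0 to 13.8 normalized counts, and Ibsp, the bone sialoprotein gene, at most 1.06, while 11 of the 16 bone products on the list passed the filter on low values. Of these 11, 1 rose and 4 fell with EBSS in WT and 1 rose and 3 fell in Vps15KO. With Vps15KO 3 rose and 7 fell in basal medium and 3 rose and 5 fell in EBSS. Col1a1, the type I collagen gene that fibroblasts share with bone, fell with Vps15KO in the 2 media (-1.90 ± 0.09 and -1.89 ± 0.09), and Mmp13, a collagenase, rose by 1.42 ± 0.10 and 1.73 ± 0.10. Phospho1, a phosphatase of mineralizing cells, rose with EBSS in WT (1.29 ± 0.12) and was at 0.29 ± 0.12 in Vps15KO, not called. The value in Vps15KO was called under 10 of 24 other settings, among them the replicate block (0.29) and removal of length and GC trends (0.45).

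The fat factors split. Cebpa, the late C/EBP factor of fat cells, rose with EBSS and was lower in Vps15KO in both media. WT counts were 107, 139 and 120 in basal medium and 696, 642 and 687 in EBSS. Vps15KO counts were 73.2, 63.7 and 68.6 in basal medium and 239, 255 and 209 in EBSS. Every EBSS library lay above every basal one, and in each medium every WT library lay above every Vps15KO one. The log2 difference with EBSS was 2.24 ± 0.10 in WT, the 25th largest rise, and 1.47 ± 0.10 in Vps15KO, a gap of -0.78 ± 0.14. Vps15KO stood at 56.2% of WT in basal medium (-0.65 ± 0.10) and at 34.7% in EBSS (-1.43 ± 0.10). Cebpa lies at chr7:35119293-35121928 on the plus strand, opposite an antisense transcript, Gm45091, whose reads may be included.

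Cebpb, the early stress-responsive C/EBP factor, was higher with EBSS and higher in Vps15KO. WT counts were 2780, 2971 and 2849 in basal medium and 3969, 3996 and 4264 in EBSS. Vps15KO counts were 4799, 4774 and 4416 in basal medium and 7176, 6408 and 5761 in EBSS. The 4 groups formed 4 steps without overlap, with Vps15KO basal above WT EBSS. EBSS raised it by 0.50 ± 0.07 in WT and 0.46 ± 0.07 in Vps15KO. Against WT, Cebpb was higher in Vps15KO by 0.70 ± 0.07 in basal medium and 0.65 ± 0.07 in EBSS. The 2 EBSS effects differed by -0.04 ± 0.10, which was not called. Cebpb (chr2:167688915-167690432, plus strand) is a single exon of 67.2% GC, above 99.8% of genes, and overlaps Tmem189 on the other strand.

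Cebpd, the other early C/EBP factor, went the opposite way with EBSS. WT counts were 1866, 1930 and 1845 in basal medium and 578, 426 and 589 in EBSS. Vps15KO counts were 2597, 2644 and 2372 in basal medium and 1315, 1286 and 1108 in EBSS. All EBSS libraries lay below all basal ones, and Vps15KO lay above WT in each medium. The fall with EBSS was -1.79 ± 0.10 in WT, the 14th largest fall of all genes, and -1.02 ± 0.10 in Vps15KO, a gap of 0.76 ± 0.14. Vps15KO was higher by 0.43 ± 0.10 in basal medium and 1.19 ± 0.10 in EBSS, where the ratio of means was 2.33. Cebpd lies at chr16:15887286-15889545 on the plus strand and overlaps Spidr on the other strand.

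Per kb of exon, the 3 C/EBP messages added up to 2784 ± 87.2 in WT basal, 3202 ± 139 in WT EBSS, 4250 ± 206 in Vps15KO basal and 4923 ± 522 in Vps15KO EBSS. The sum was higher in all Vps15KO libraries than in any WT one. Cebpb made up 68.5% of it in WT basal and 73.0% in Vps15KO basal, and 84.7% and 87.1% in the EBSS groups. Cebpd went from 29.9% to 7.32% in WT and from 26.4% to 11.1% in Vps15KO. Cebpa reached 8.01% ± 0.32 (SD, n = 3) in WT EBSS, from 1.66% ± 0.16 in WT basal, while in Vps15KO it stood at 0.61% ± 0.05 in basal medium and 1.81% ± 0.15 in EBSS. The ranges of its share in Vps15KO EBSS (1.67% to 1.97%) and in WT basal (1.498% to 1.83%) overlapped.

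**Figure D3:**
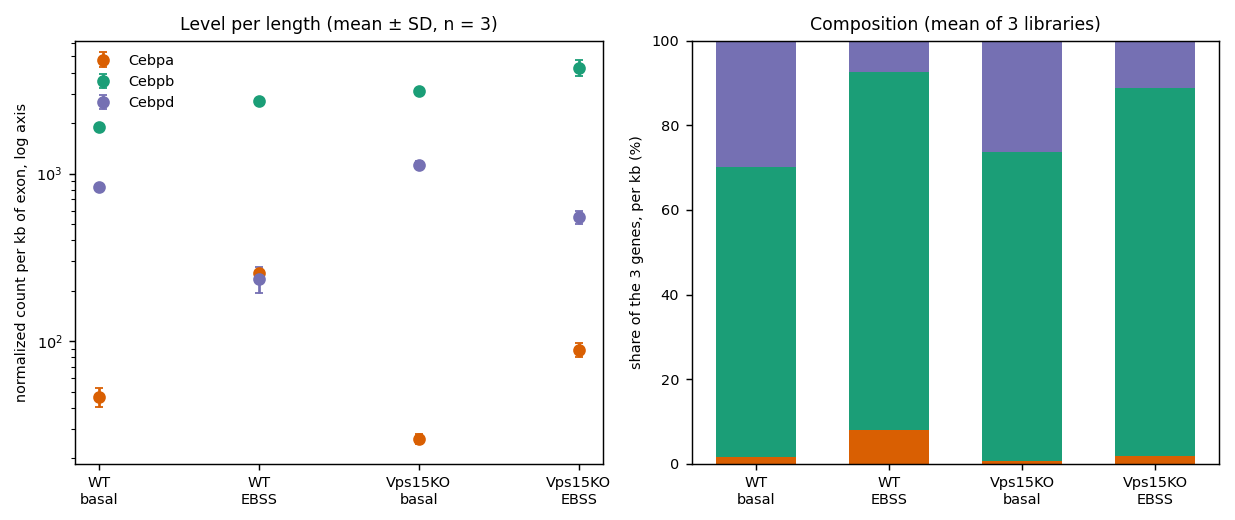
Left, normalized counts per kb of exon (log y axis) of the 3 C/EBP genes in each group, points for means of 3 libraries and bars for SD. Right, the mean share (y axis, %) of Cebpa (orange, bottom), Cebpb (green, middle) and Cebpd (purple, top) in their sum, where Cebpa takes 8.01% in WT EBSS and 1.81% in Vps15KO EBSS.

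Pparg, the nuclear receptor that drives fat formation, had few reads and was higher in Vps15KO. WT counts were 31.1, 22.2 and 24.99 in basal medium and 38.2, 29.5 and 48.9 in EBSS. Vps15KO counts were 68.4, 68.6 and 50.01 in basal medium and 59.0, 71.0 and 67.2 in EBSS. All 6 Vps15KO libraries lay above all 6 WT ones, while the media overlapped in both genotypes. Vps15KO was higher by 0.81 ± 0.13 in basal medium, a ratio of means of 2.39, and by 0.53 ± 0.13 in EBSS, a ratio of 1.69. The deposited scale compresses low counts, and on log2 of the normalized count plus 1 the value in basal medium was 1.22. EBSS gave 0.34 ± 0.13 in WT, a call that ended under 9 of 23 other settings, among them with voom (0.55), without both libraries that stood apart (0.28), and without WT basal replicate 2 (0.28), WT basal replicate 3 (0.32), WT EBSS replicate 1 (0.34) or WT EBSS replicate 3 (0.22). In Vps15KO EBSS gave 0.06 ± 0.13, and the gap of -0.28 ± 0.19 was not called. Pparg spans chr6:115360879-115490404 on the plus strand, with several starts that gene counts do not separate. It overlaps an antisense transcript, Gm44079, whose reads may be included.

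Of 27 tested fat factors and partners, 17 rose and 4 fell with EBSS in WT and 16 rose and 4 fell in Vps15KO, with medians of 0.46 and 0.35. Klf4, a factor that acts on Cebpb early in fat formation, rose by 1.39 ± 0.09 and 1.37 ± 0.09 (limma adjusted p = 2.0e-10 and 3.6e-10), and Bcl6, a repressor, by 1.22 ± 0.09 and 1.27 ± 0.09. Trib2, a pseudokinase that promotes breakdown of C/EBPα, fell by 1.80 ± 0.08 in WT and 2.10 ± 0.08 in Vps15KO (limma adjusted p = 4.0e-12 and 5.1e-13). With Vps15KO 12 of the 27 rose and 6 fell in each medium. In basal medium Trib3, a relative of Trib2, rose by 2.10 ± 0.14, Ddit3, the stress-induced C/EBP partner CHOP, by 1.74 ± 0.13, and Klf4 by 1.54 ± 0.09, while Ebf3 fell by 0.78 ± 0.07. The signed difference of the EBSS effects was called upward for 3 of the 27 and downward for 4. Adipoq, the adiponectin gene, had at most 2.96 normalized counts in any library and Plin1, a coat protein of fat cell droplets, 2.01, while 12 of the 24 fat products in the table passed the filter on low values. Of these 12, 7 rose and 2 fell with EBSS in WT (median 0.54) and 5 rose and 4 fell in Vps15KO (median -0.04). Angptl4, a secreted inhibitor of lipoprotein lipase, had 44.1, 38.1 and 28.0 normalized counts in WT basal, 721, 711 and 720 in WT EBSS, at most 1.96 in Vps15KO basal and 130 to 140 in Vps15KO EBSS. Plin4, a lipid droplet coat protein, rose with EBSS by 0.87 ± 0.06 and 0.75 ± 0.06. Lipe, the hormone-sensitive lipase, was higher with EBSS in WT (0.49 ± 0.08) and lower in Vps15KO (-0.45 ± 0.08), and Dgat2, a triglyceride-forming enzyme, rose in WT (0.76 ± 0.11) and was at -0.03 ± 0.11 in Vps15KO. With Vps15KO 4 products rose and 5 fell in basal medium and 3 rose and 5 fell in EBSS. The signed difference of the EBSS effects was called downward for 5 of the 12 and upward for none (none at an unadjusted limma p under 0.05 either), though Angptl4, so low in Vps15KO basal, was called upward with voom (2.25).

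Twist1, a helix-loop-helix factor that holds mesenchyme undifferentiated and restrains RUNX2, fell with EBSS in both genotypes and was lower in Vps15KO in both media. WT counts were 1991, 2018 and 1849 in basal medium and 1091, 1004 and 914 in EBSS. Vps15KO counts were 1278, 1285 and 1335 in basal medium and 666, 674 and 640 in EBSS. The 4 groups did not overlap, with WT basal highest and Vps15KO EBSS lowest. The log2 difference with EBSS was -0.94 ± 0.07 in WT and -0.95 ± 0.07 in Vps15KO, and that with Vps15KO -0.58 ± 0.07 in each medium. The difference of the EBSS effects was -0.005 ± 0.095 (SE). Twist1 lies at chr12:33957671-33959831 on the plus strand, with no overlapping annotated gene.

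Prrx1, a homeobox factor of limb mesenchyme and fibroblasts, had many reads and the smallest log2 differences with EBSS among the 10 in each genotype. WT counts were 10773, 8402 and 10015 in basal medium and 10767, 10496 and 10255 in EBSS. Vps15KO counts were 8052, 7819 and 8015 in basal medium and 7333, 8079 and 7801 in EBSS. All 6 WT libraries lay above all 6 Vps15KO ones, the closest being WT basal replicate 2, while the media overlapped in each genotype. Prrx1 was lower in Vps15KO by 0.28 ± 0.07 in basal medium and 0.44 ± 0.07 in EBSS. EBSS gave 0.12 ± 0.07 in WT and -0.04 ± 0.07 in Vps15KO, neither called. The first of these turned to -0.17 and was called once trends in length and GC content were taken out, was 0.19 and called without WT basal replicate 1, and was 0.02 without WT basal replicate 2. The second was -0.27 and called once the trends were out. Prrx1 (chr1:163245119-163315145, minus strand) has long exons with a GC content of 43.7%. It overlaps Gm26523 and Gm37644 on the same strand and the antisense transcript Gm20471 on the other, whose reads may be included.

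Of 38 tested mesenchyme and limb factors, 22 rose and 4 fell with EBSS in WT and 19 rose and 8 fell in Vps15KO, with medians of 0.34 and 0.20. Id2, which sequesters E proteins, rose by 2.55 ± 0.12 and 2.95 ± 0.12 (limma adjusted p = 9.6e-12 and 1.7e-12). Id3, of the same family, fell in WT (-1.02 ± 0.06, limma adjusted p = 1.0e-10) and was at 0.12 ± 0.06 in Vps15KO, not called. The value in Vps15KO was 0.33 and called with length and GC trends removed, and was called without WT basal replicate 2 (0.12). Scx, the tendon factor, rose by 1.57 ± 0.08 and 0.79 ± 0.08. With Vps15KO 7 rose and 17 fell in basal medium and 6 rose and 20 fell in EBSS. Among the falls were those of Osr2, a zinc finger factor (-1.72 ± 0.08 and -1.78 ± 0.08), Prrx2, the relative of Prrx1 (-1.36 ± 0.08 and -1.69 ± 0.08), and Osr1 (-0.75 ± 0.06 and -1.58 ± 0.06). Id3 fell with Vps15KO in basal medium (-1.12 ± 0.06) and was at 0.03 ± 0.06 in EBSS, not called. Beside 9.55% upward and 8.24% downward of all genes, the signed difference of the EBSS effects was called upward for 3 of the 38 and downward for 13. Among the latter was Foxc1, a forkhead factor, at 0.20 ± 0.09 in WT, not called (0.27 without WT basal replicate 1 and 0.30 without WT EBSS replicate 3, both called), and -0.93 ± 0.09 in Vps15KO (difference -1.13 ± 0.13, limma adjusted p = 1.1e-05).

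Lbh had the largest fall with EBSS in WT of all 14279 genes tested. WT counts were 7575, 6563 and 7418 in basal medium and 983, 1137 and 1154 in EBSS. Vps15KO counts were 4582, 4491 and 4320 in basal medium and 1770, 2012 and 2465 in EBSS. WT held both the highest and the lowest libraries, and the Vps15KO groups lay between them without overlap. The log2 difference with EBSS was -2.69 ± 0.09 in WT, a drop to 15.2% of the basal mean, and -1.10 ± 0.09 in Vps15KO, a drop to 46.6%. The gap of 1.59 ± 0.13 was the 9th largest in its direction. Lbh was lower in Vps15KO in basal medium (-0.68 ± 0.09) and higher in EBSS (0.91 ± 0.09), the one member with opposite calls in the 2 media. Lbh lies at chr17:72918305-72941946 on the plus strand, with no overlapping annotated gene.

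Of 29 tested signals that act on these factors, 18 rose and 3 fell with EBSS in WT and 15 rose and 5 fell in Vps15KO. Bmp2, a ligand that induces Sox9, Runx2 and Nkx3-2 in skeletal progenitors, rose by 2.18 ± 0.12 and 2.36 ± 0.12 (limma adjusted p = 5.7e-11 and 2.7e-11) and was lower in Vps15KO, with -1.45 ± 0.12 in basal medium and -1.27 ± 0.12 in EBSS. Smad6, an inhibitor of that pathway, rose by 1.55 ± 0.08 in WT and 0.95 ± 0.08 in Vps15KO, and Fgfr2, a fibroblast growth factor receptor, by 1.28 ± 0.07 and 0.66 ± 0.07. Smad7, an inhibitor of TGFβ signals, rose by 0.46 ± 0.07 and 1.20 ± 0.07, and Hes1, a Notch target, by 1.07 ± 0.12 and 2.43 ± 0.12. With Vps15KO 11 rose and 13 fell in basal medium and 8 rose and 17 fell in EBSS. The signed difference of the EBSS effects was called upward for 3 of the 29 and downward for 9.

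**Figure D4:**
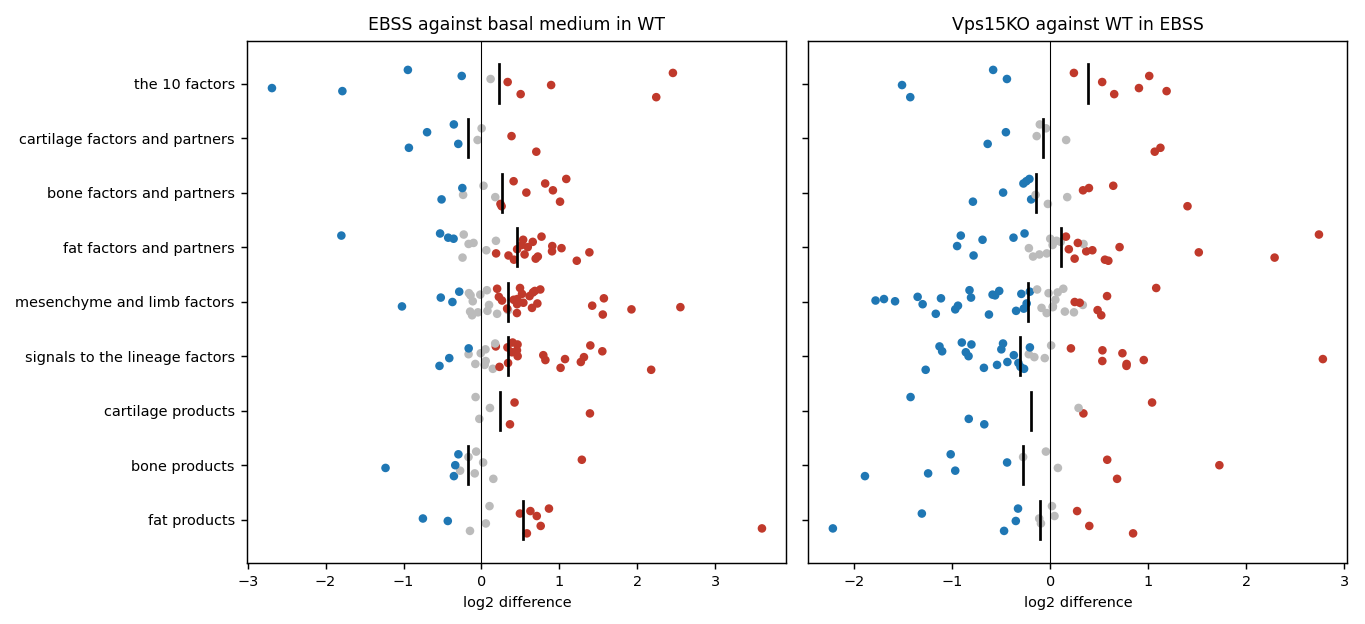
Log2 differences (x axes) of every tested gene of each list (rows) with EBSS in WT, left, and with Vps15KO in EBSS, right. Red points were called higher, blue points lower and grey points neither, and a bar marks the median of the list, 0.46 for fat factors on the left and -0.22 for mesenchyme and limb factors on the right.

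Beside each member, the genes with the most similar pattern over the 12 libraries were found by Pearson correlation of the deposited values. The libraries form 4 groups, so these values mainly compare group means, and they share the libraries and their depth. Klhl21 (r = 0.998) and Ndrg1 (0.996) were closest to Sox9, Scx (0.991) and Nt5c2 (0.990) to Cebpa, Ppm1a (0.988) and Smurf1 (0.986) to Cebpb, and Tbc1d10a (0.987) and Sat1 (0.984) to Cebpd. For Lbh they were Rgs3 (0.993) and Spred3 (0.992), for Twist1 Kctd11 (0.995) and Efna4 (0.990), for Nkx3-2 Cdkn1b (0.979) and Mat2b (0.976), for Runx2 Fmn1 (0.986) and Rusc2 (0.983), for Prrx1 Adgra2 (0.974) and Tpbg (0.970), and for Pparg Inpp5a (0.971) and Tigar (0.956). No member was among the closest genes of another.

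Among the members, 4 are rich in G and C: Nkx3-2, Cebpb, Cebpa (62.6%) and Twist1 (59.3%), while the median gene has 49.1%. Across genes the log2 difference fell with GC content for EBSS in WT (Spearman's rho -0.282 over 13527 genes), for EBSS in Vps15KO (-0.207) and for Vps15KO in basal medium (-0.228). It rose with transcript length, with rho of 0.307, 0.343 and 0.113 in the same order. The top 5% of genes by GC content had a median of -0.26 with EBSS in WT. For Vps15KO in EBSS rho was -0.088 with GC content and 0.074 with length. For the difference of the EBSS effects it was 0.211 with GC content and -0.064 with length, and the top 5% had a median of 0.115. Of these 4 members, Nkx3-2, Cebpb and Cebpa rose with EBSS in WT, by 1.07, 0.71 and 2.45 once trends in length and GC content were taken out, and Twist1 fell by 0.65. Both trends were taken out together, so the part of each cannot be told apart. Across genes these relations have no independent replicates and carry no test.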

How the data were processed

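The data are 12 poly-A RNA libraries of the MEF Vps15f/f line, 3 per group, strand-marked with dUTP per the labels' protocols and all with the same batch label. Per the submitters' processing notes, STAR 2.7.10b, featureCounts, DESeq2 and limma were used with the build mm10, with no role given, and strand use in counting is not given in the sources used here. The authors deposited 32721 genes in log2 units, a variance-stabilizing transformation of counts. From its floor of 3.83, the value of a count of 0, it was inverted, and 100% of values gave whole reads (tolerance 0.001) with size factors of 0.945 to 1.02. A count of 0 allows 3 reads, for counting error only. Normalized counts are these reads divided by the size factor.

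Members and lists were chosen with earlier results of these data known. The lists hold factors and partners, products and signals by lineage, and marker genes for fibroblasts plus 5 further cell types. The genes named are the members, some of the 4 genes of smallest p per list and comparison, and the 2 genes most correlated with each member. Sox5, Sox6, Sp7, Acan, Col2a1, Ibsp, Adipoq, Plin1, Cd68, Ptprc and Adgre1, list genes given by level only, were chosen after their values were seen. Pax1, Barx1, Znf219, Zbtb16, Tcf21 and Lep were not analysed here. With limma 3.58.1 (R 4.3.3), a mean per group was estimated on the deposited scale, with empirical Bayes moderation and a variance trend, over the 14279 genes whose average exceeded the floor by 1 or more (8 residual and 10.2 prior degrees of freedom), two-sided with Benjamini-Hochberg adjustment. Log2 differences are on the deposited scale and understate ratios of low genes. The fit was tried on simulated data with the same dispersion for every gene and few changed genes. These data are unlike that, so the trial does not measure the error of the calls given here. The 24 alternatives were the replicate block, 2 filters, 2 normalizations, log2 of the normalized count plus 1, voom on the worked-back reads, no variance trend, a threshold of 0.01, removal of length and GC trends, only the groups compared, both libraries that stand apart left out, and each library left out.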

Additional observations from a re-analysis of the deposited data

Results flagged for a closer look

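The EBSS effect differed between Vps15KO and WT by the interaction term of limma for 6 of the 10 members, which were chosen with such values known, and the differences are Vps15KO minus WT on the log2 scale. Lbh had 1.59 (1.586 before rounding), Cebpd 0.76 and Runx2 0.50, while Nkx3-2 had -1.46, Cebpa -0.78 and Sox9 -0.47.

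The same term was called for 22 of the other genes named. Among cartilage and bone factors it was 1.37 for Arid5b, 0.82 for Arid5a, 0.58 for Trps1, 0.45 for Mef2c and 0.64 for Atf4, and -0.51 for Hdac4, -0.40 for Runx1 and -0.40 for Tle3. Among the 27 fat factors it was called upward for 3 and downward for 4, and genes of smaller p in that list are not among those named. For the named ones it was 0.64 for Trib3 and 0.55 for Ddit3, both upward. These calls ended under 11 and 10 of 23 other settings, among them no filter, no variance trend and most single libraries left out, and the value was 0.34 for Ddit3 without WT basal replicate 2 and 0.41 for Trib3 without both libraries that stand apart. Among mesenchyme and limb factors it was 1.14 for Id3, and -1.13 for Foxc1, -0.83 for Osr1, -0.79 for Scx and -0.34 for Prrx2, a call that ended under 13 of 23 other settings, among them no filter (-0.34), quantile normalization (-0.28) and most single libraries left out. Among signals it was 1.36 for Hes1 and 0.74 for Smad7, and -0.61 for Fgfr2 and -0.60 for Smad6. Among products it was -1.001 for Phospho1, -0.95 for Lipe and -0.79 for Dgat2.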

How the results depend on the processing

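Of the members' values under the alternatives, 228 of 239 kept direction and call with EBSS in WT, 236 of 239 with EBSS in Vps15KO, 237 of 239 with Vps15KO in basal medium, all 239 with Vps15KO in EBSS and all 229 for the difference. The exceptions are those given above for Pparg, Prrx1, Runx2 and Nkx3-2, and the only member whose sign turned in a called value was Prrx1 with EBSS in WT, at -0.17 with length and GC trends removed, where the cause was not tested. At an adjusted p under 0.01 the difference of the EBSS effects was called for 707 genes upward and 520 downward, against 1363 and 1177, by construction of the stricter threshold. With single libraries left out, these counts ran from 1023 to 1659 and from 832 to 1516. The difference for Angptl4, which had at most 1.96 normalized counts in Vps15KO basal, was -0.46 and not called on the deposited scale, but 1.75 on log2 of the normalized count plus 1 and 2.25 with voom, and it was called downward with quantile normalization (-0.51) and without Vps15KO basal replicate 3 (-0.64). Of 4160 values of the other genes named, 4016 kept direction and call. No label says that replicate numbers pair libraries. Same-number correlations of residuals ran from -0.15 to 0.01 between media within a genotype. Between genotypes all were positive, from 0.08 to 0.26 in basal medium and from 0.04 to 0.12 in EBSS. Different-number ones between genotypes ran from -0.21 to 0.11, and pairing across genotypes was not tested. With the replicate block the counts for EBSS in WT were 4475 and 4464 against 4486 and 4468, with 5 members higher and 4 lower as before. No member's call changed with the block, while among the other genes named it changed calls as given for Phospho1. Reads limit Pparg most, with at most 71.0 normalized counts in a library.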
